A study of Mus musculus with 14 samples.

Results

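Transcripts of MHC class I antigen presentation were followed in whole plexiform neurofibromas (PNs), the benign nerve tumors of neurofibromatosis type 1, and in control dorsal root ganglia (DRGs). The 10 genes were chosen by name, with earlier results of these data known, and all 10 were found by symbol among the 24062 genes of the count table: *B2m*, *H2-K1*, *H2-D1*, *H2-T23*, *Tap1*, *Tap2*, *Tapbp*, *Psmb8*, *Psmb9*, and *Nlrc5*. Bulk RNA-seq covered 14 libraries, each with its own sample number, all from mice of a mixed C57BL/6, I-129, and FVBN background without drug treatment. The labels do not say that each library is a different mouse, so p-values measure the spread between these libraries. Controls were DRGs with nerve from *Nf1* fl/fl mice without Cre (n = 3, libraries DRG3, DRG4, and DRG5). PNs came from DhhCre;*Nf1* fl/fl mice, in which Cre is driven by a Schwann cell lineage promoter, so that other cells of the tumor keep *Nf1*. By MRI over 2 months, ending at 9 months of age, 5 PNs changed by less than 5 mm3 and were called slow growing (libraries 1079, 1198A, 1202, 1203, and 1206), and 6 PNs grew by more than 35 mm3 and were called fast growing (1053, 1071, 1179, 1191, 1214, and 1216).

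MHC class I molecules show short peptides from inside a cell to CD8+ T cells. The proteasome cuts proteins into peptides, and *Psmb8* and *Psmb9* encode catalytic subunits that replace constitutive ones to form the immunoproteasome. The *Tap1* and *Tap2* proteins form the transporter that moves peptides into the endoplasmic reticulum. *Tapbp* encodes tapasin, which holds the transporter and the class I molecule together while peptide is loaded. *H2-K1* and *H2-D1* encode classical heavy chains, *H2-T23* encodes the nonclassical heavy chain Qa-1, and *B2m* encodes the light chain that all of them share. *Nlrc5* encodes a transactivator that acts at class I promoters, and interferons raise most genes of the pathway. Class I is carried by nearly all nucleated cells and is high on leukocytes.

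In GENCODE vM21 on mm10, 8 of the 10 genes lie in the major histocompatibility complex on chromosome 17. *Psmb9* (chr17:34181987-34187764, minus strand), *Tap1* (chr17:34187553-34197225, plus), *Psmb8* (chr17:34197721-34201454, plus), and *Tap2* (chr17:34203527-34216321, plus) adjoin each other. Exons of *Psmb9* and *Tap1* overlap on opposite strands, and the strand setting of the counting is not given in the sources used here, so reads from that overlap cannot be told apart. Exons of *Tap2*, *Tapbp*, *Psmb8*, and *Nlrc5* also overlap those of other annotated genes on the opposite strand, and *Tapbp* overlaps *Zbtb22* on its own strand. *Tapbp* (chr17:33915899-33929292, plus), *H2-K1* (chr17:33996017-34000347, minus), *H2-D1* (chr17:35262730-35267499, plus), and *H2-T23* (chr17:36029773-36032855, minus) lie on either side. *B2m* is at chr2:122147686-122153083 (plus) and *Nlrc5* at chr8:94434356-94527272 (plus). Of the 50-base words of each transcript, 29.8% for *H2-T23*, 14.3% for *H2-D1*, and 8.79% for *H2-K1* also occur in other genes, most often *H2-T-ps*, *H2-Q1*, and *H2-D1* respectively. The share was 21.0% for *Tapbp*, 12.6% for *Tap2*, 12.5% for *Psmb9*, 6.47% for *Tap1*, and 5.83% for *Psmb8*, and 0 for *B2m* and *Nlrc5*. Counts are therefore uncertain to that extent, and mixed-strain alleles may map unevenly to the C57BL/6 reference.

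RefSeq promoter windows of GRCm38.p6, from 250 bases before to 50 after each gene's start, were on hand for 8 of the 10 genes. Those of *H2-K1* and *B2m* are shown because the promoters of the heavy and light chains are known to be induced through such elements. The RefSeq start equals the GENCODE start given above for *H2-K1* and lies inside the GENCODE gene for the other 7. It lies inside by a few bases for *B2m* and *Tap1* and further for *H2-D1*, *H2-T23*, *Tapbp*, *Psmb8*, and *Psmb9*. The window of *H2-T23* covers only part of the sequence before its GENCODE start. Those of *H2-D1*, *Tapbp*, *Psmb8*, and *Psmb9* lie wholly inside the GENCODE gene and cover none of it. The *H2-K1* stretch lies at chr17:34000348-34000597 on the minus strand, and the *B2m* stretch lies at chr2:122147437-122147685 on the plus strand. Both read 5′ to 3′ and end at the base before the GENCODE start. Capitals mark, on either strand, a relaxed interferon-stimulated response element (ISRE; AANNGAAA), the NF-kB consensus, the Y box (CCAAT), and the core of the cAMP response element (TGACG).
H2-K1: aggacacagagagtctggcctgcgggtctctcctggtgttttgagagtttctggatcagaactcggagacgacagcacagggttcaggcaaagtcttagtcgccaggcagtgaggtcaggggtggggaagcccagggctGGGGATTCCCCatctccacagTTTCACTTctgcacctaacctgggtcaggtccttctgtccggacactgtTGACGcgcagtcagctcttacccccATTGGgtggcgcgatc
B2m: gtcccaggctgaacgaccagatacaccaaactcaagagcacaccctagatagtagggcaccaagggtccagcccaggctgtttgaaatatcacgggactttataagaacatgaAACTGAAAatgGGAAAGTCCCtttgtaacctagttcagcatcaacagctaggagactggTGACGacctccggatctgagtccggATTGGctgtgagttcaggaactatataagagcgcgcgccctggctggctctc

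In both stretches the order from 5′ to 3′ ended with the core followed by the Y box close to the start. In *H2-K1* the NF-kB match preceded the relaxed ISRE, and in *B2m* it followed it. The 30-base segment with both of the upstream matches was compared between the 2 classical heavy chain genes. That of *H2-K1* lies at chr17:34000429-34000458. That of *H2-D1* lies at chr17:35262923-35262952 on the plus strand, before its RefSeq start but inside its GENCODE gene.
H2-K1: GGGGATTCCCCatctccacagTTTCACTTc
H2-D1: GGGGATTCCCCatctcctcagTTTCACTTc

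These segments were equal at 29 of 30 bases. The strict ISRE (2 copies of GAAA with 2 bases of any kind between them), searched on both strands like the other motifs, was found in 2 of the 8 windows, *B2m* and *H2-T23*, and in 3.44% of 32851 mouse promoter windows of the same length. The relaxed form, which contains part of the strict one and was chosen after the *H2-K1* sequence had been read, was found in 4 of 8 windows and in 23.9% of all windows. The NF-kB consensus was found in 3 of 8 (*B2m*, *H2-K1*, and *H2-D1*) and in 4.51% of all windows. The Y box was found in 7 of 8 and in 37.4%, and the core in 5 of 8 and in 20.8%. A GC box (GGGCGG) was found in 3 of 8 windows and in 35.7% of all windows. The windows of *Tap1* and *Psmb9* overlap, and their Y box, core, and GC box matches are the same sites, counted for both genes. All matches given here describe letters in the windows and do not show that a factor binds there.

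Library totals ran from 9596773 to 17594164 counts, and 3 counts, taken as the floor of detection, corresponded to between 0.167 and 0.313 CPM (counts relative to the TMM-scaled library total). The lowest count of any of the 10 genes was 36 reads, for *Nlrc5* in PN 1203, so every gene was above that floor in every library. Schwann cell and glial markers (12 of 12 listed) and sensory neuron markers (13 of 13) were detected in each group. The mean log2(CPM + 1) of the neuron list was 1.56 in fast-growing PN 1191 and at least 6.48 in the control and slow-growing libraries. *Nf1* itself was at 129 to 227 CPM in controls and 225 to 294 CPM in the 11 PNs, in whole tissue where unrecombined cells also contribute. Skeletal muscle markers (15 of 15) summed to between 4035 and 16176 CPM in controls, 42.4 and 3895 CPM in slow-growing PNs, and 86.3 and 2549 CPM in fast-growing PNs. The transcripts *Rag1* and *Dntt*, which are used in developing lymphocytes and were singled out after their values had been seen, were at 189 and 71.0 CPM in slow-growing PN 1079 and at 102 and 29.9 CPM in fast-growing PN 1191. In the other 12 libraries *Rag1* did not exceed 13.4 CPM.

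Per kb of transcript, the light chain was by far the most abundant transcript of the set. Averaged over the 14 libraries, *B2m* was at 1549 CPM per kb, followed by *H2-K1* at 221, *H2-D1* at 168, *H2-T23* at 22.9, *Psmb9* at 20.9, *Psmb8* at 18.6, *Tapbp* at 17.9, *Tap1* at 8.45, *Nlrc5* at 2.95, and *Tap2* at 2.52 CPM per kb. *B2m* exceeded *H2-K1* in 14 of 14 libraries, and *H2-K1* exceeded *H2-D1* in 13 of 14. The levels of *H2-T23*, *Psmb9*, *Psmb8*, and *Tapbp* were not separated: each neighbour in that order exceeded the next in 9, 9, and 5 of 14 libraries. *Tap1* lay below *Tapbp* and above *Nlrc5* in 14 of 14 libraries, whereas *Nlrc5* and *Tap2* changed places (8 of 14). *Tap2* and *Tap1* encode the partners of 1 transporter, yet their transcript levels per kb were unequal.

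**Figure D1:**
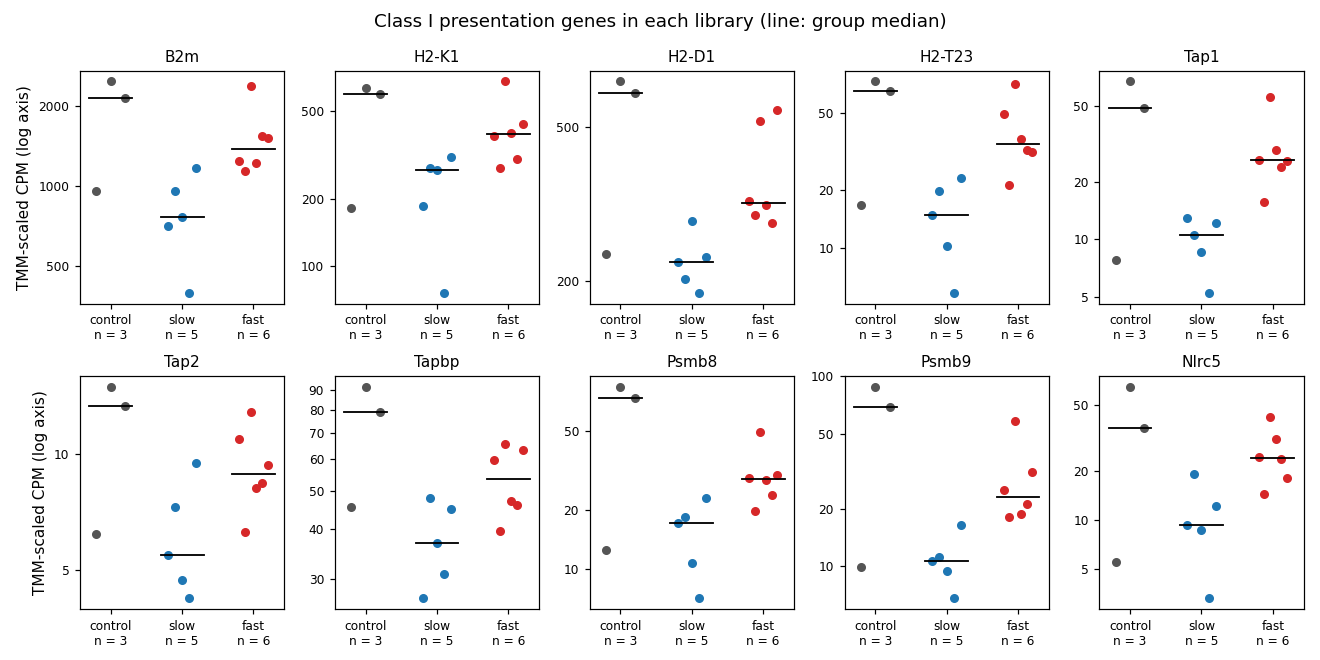
TMM-scaled CPM (log axis) of each of the 10 genes in the control (n = 3), slow-growing PN (n = 5), and fast-growing PN (n = 6) libraries, with 1 point per library and a line at the group median. For each gene, 1 control lies far below the other 2, and the medians are ordered control, fast-growing, slow-growing from high to low.

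The controls were not uniform for these genes. *Psmb9*, was at 9.86 CPM in DRG3, 88.3 CPM in DRG4, and 68.8 CPM in DRG5. *Tap1* was at 7.80 CPM, 67.2 CPM, and 48.6 CPM in the same order, and *Nlrc5* was at 5.49 CPM, 65.2 CPM, and 36.5 CPM. DRG3 thus lay within or near the range of the slow-growing PNs, while DRG4 and DRG5 lay above it. The highest over the lowest control was 11.9-fold for *Nlrc5*, 8.96-fold for *Psmb9*, 8.61-fold for *Tap1*, 6.67-fold for *Psmb8*, and 2.02-fold for *Tapbp*, the steadiest of the 10. Leukocyte markers (7 of 7 listed: *Ptprc*, *Cd53*, *Laptm5*, *Coro1a*, *Cd52*, *Tyrobp*, and *Fcer1g*) were split in the same way, with summed levels of 116 CPM in DRG3, 1222 CPM in DRG4, and 979.6 CPM in DRG5.

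Slow-growing PNs were compared with controls to ask how class I transcripts stood in tumors that hardly changed in size. All 10 genes had a lower mean in slow-growing PNs, where 47.8% of all genes had a log2 fold change below 0, and 2 passed the test, the immunoproteasome subunit *Psmb9* and the heavy chain *H2-D1* (edgeR quasi-likelihood test, Benjamini-Hochberg adjusted p under 0.05). In the same comparison 11.3% of 15714 genes were called, and 7.13% were called lower. *Psmb9* was at 10.6, 11.2, 9.50, 6.78, and 16.6 CPM in slow-growing PNs 1079, 1198A, 1202, 1203, and 1206, each below the control mean of 55.7 ± 40.8 CPM (SD, n = 3). Its log2 fold change was -2.41 with a standard error of 0.58 (adjusted p = 0.0337). *H2-D1* was at 224, 203, 286, 186, and 231 CPM in the same slow-growing PNs and at 236, 658, and 614 CPM in DRG3, DRG4, and DRG5. Its log2 fold change was -1.22 with a standard error of 0.33 (adjusted p = 0.0481). Neither gene separated the groups completely, because DRG3 fell among the slow-growing PNs.

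The other 8 genes did not pass in slow-growing PNs versus controls. Among the transport genes, the log2 fold change was -2.12 (SE 0.58, adjusted p = 0.0503) for *Tap1* and -0.94 (SE 0.38, adjusted p = 0.136) for *Tap2*, and tapasin's transcript *Tapbp* had -1.01 (SE 0.28, adjusted p = 0.0518). *Psmb8* had a log2 fold change of -1.95 (SE 0.58, adjusted p = 0.0646), close to that of its neighbour subunit. Of the chains, *B2m* had -1.28 (SE 0.41, adjusted p = 0.0827), *H2-K1* had -1.14 (SE 0.51, adjusted p = 0.173), and *H2-T23* had -1.86 (SE 0.54, adjusted p = 0.0605). The transactivator *Nlrc5* had -1.83 (SE 0.71, adjusted p = 0.127). The median over the 10 genes was -1.56, against 0.04 over all genes tested, and 9 of the 10 had an unadjusted p under 0.05 with a lower mean, against 17% of all genes. In 18 alternative settings, *Psmb9* was called in 7 and *H2-D1* in 3, and the number called differed between tests, as given below. The calls also changed with the library left out. Without DRG3, 9 of the 10 genes were called, all except *H2-K1*, in a fit that called 15.3% of all genes, and without DRG4 or without DRG5 none was, in fits that called 4.27% and 3.74%. Leaving out slow-growing PN 1079, 1198A, 1202, or 1203 also left 0 calls, in fits that called 6.19% to 12.5% of all genes, and leaving out 1206 left *Psmb9* alone, with 7.87% of all genes called.

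**Figure D2:**
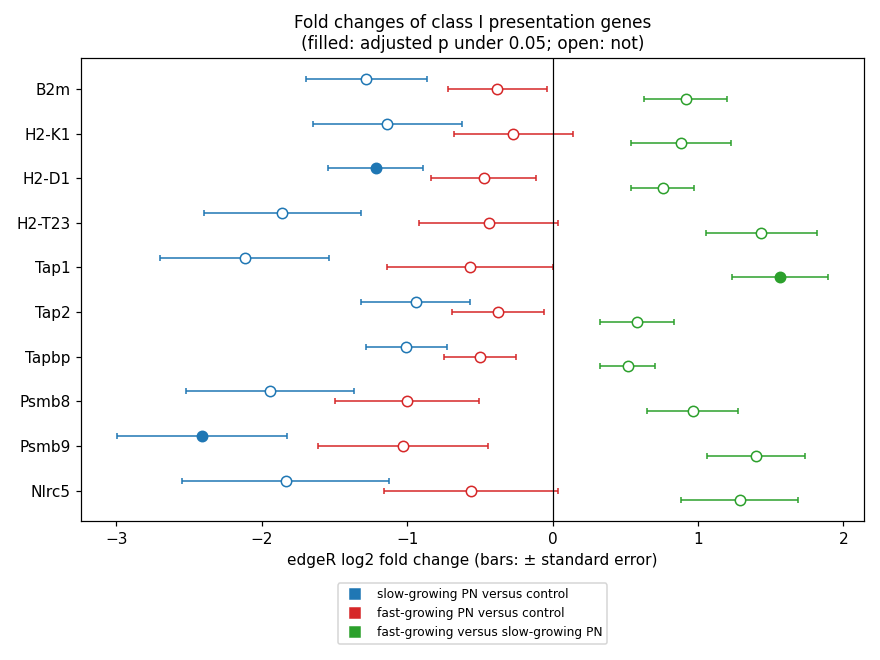
edgeR log2 fold changes (points) with their standard errors (bars) for the 10 genes in slow-growing PNs versus controls, fast-growing PNs versus controls, and fast- versus slow-growing PNs. Filled points passed an adjusted p of 0.05: *H2-D1* and *Psmb9* in slow-growing PNs versus controls, and *Tap1* in fast- versus slow-growing PNs.

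Growth groups were then compared directly, in a fit that contained no control library. All 10 genes had a higher mean in fast-growing than in slow-growing PNs, with log2 fold changes from 0.52 (*Tapbp*) to 1.56 (*Tap1*) and a median of 0.94, against -0.03 over all 15465 genes tested, of which 46.5% were above 0. *Tap1* alone passed the adjusted threshold, in a comparison where 1.27% of genes were called and 0.802% were called higher. In slow-growing PNs 1079, 1198A, 1202, 1203, and 1206, *Tap1* was at 12.99, 10.5, 8.58, 5.22, and 12.2 CPM. In fast-growing PNs it ranged from 15.8 CPM in 1071 to 55.6 CPM in 1179, with a median of 25.9 CPM. The groups did not overlap, and the log2 fold change was 1.56 with a standard error of 0.33 (edgeR adjusted p = 0.0484), a 2.96-fold higher level.

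*Psmb9* also separated the groups, with a highest slow-growing value of 16.6 CPM and a fast-growing range of 18.2 to 57.9 CPM (median 23.3 CPM). Its log2 fold change of 1.40 (SE 0.34) missed the threshold (edgeR adjusted p = 0.0572). These 2 of 10 genes were without overlap and higher, against 2.13% of all genes tested. *H2-T23*, the ligand-bearing chain read by an inhibitory receptor on natural killer cells, was at 14.96, 19.8, 10.3, 5.86, and 23.2 CPM in slow-growing PNs 1079, 1198A, 1202, 1203, and 1206. In fast-growing PNs *H2-T23* ranged from 21.3 to 70.5 CPM (median 34.5 CPM), so that only the lowest fast-growing PN, 1071, crossed the highest slow-growing one, 1206. Its log2 fold change was 1.44 (SE 0.38, edgeR adjusted p = 0.0714).

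The remaining genes overlapped between growth groups. *B2m* was at 707, 957, 768, 395, and 1172 CPM in slow-growing PNs and 1138 to 2388 CPM in fast-growing PNs (log2 fold change 0.92, SE 0.28, edgeR adjusted p = 0.103). *Nlrc5* was at 9.34, 18.9, 8.68, 3.30, and 12.0 CPM in slow-growing PNs and 14.3 to 42.5 CPM in fast-growing PNs (log2 fold change 1.29, SE 0.40, edgeR adjusted p = 0.103). In each case PN 1203 was the lowest and PN 1179 the highest of the tumors. *H2-D1* had a log2 fold change of 0.76 (SE 0.22, adjusted p = 0.0818), *H2-K1* of 0.88 (SE 0.35, adjusted p = 0.179), and *Psmb8* of 0.96 (SE 0.31, adjusted p = 0.114). *Tap2*, at 0.58 (SE 0.25, adjusted p = 0.223), and *Tapbp*, at 0.52 (SE 0.19, adjusted p = 0.154), had the smallest differences. At an unadjusted p under 0.05, 10 of 10 genes were higher in fast-growing PNs, against 11.9% of all genes.

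The single call was close to its threshold. In 21 alternative settings *Tap1* was called in 5, and the number of the 10 genes called differed between tests, as given below. Over the 11 fits that each left out 1 PN, the log2 fold change of *Tap1* stayed between 1.26 and 1.72, and its adjusted p ran from 0.0301 to 0.129. *Tap1* was called without 1198A, 1203, or 1071 and was not called without 1079, 1202, 1206, 1053, 1179, 1191, 1214, or 1216. The number of genes called over the whole table ran from 2 to 1194 in those fits. Without both PN 1079 and PN 1191, an alternative chosen after seeing the data, *Tap1* had a log2 fold change of 1.72 (edgeR adjusted p = 0.116), and all 10 genes kept a higher mean in fast-growing PNs.

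Against controls, fast-growing PNs showed no called member. All 10 genes had a lower mean than in controls, as did 48.9% of all genes, with log2 fold changes from -1.03 (*Psmb9*, SE 0.59, adjusted p = 0.218) to -0.27 (*H2-K1*, SE 0.41, adjusted p = 0.661). *Psmb8*, at -1.001 (SE 0.50, adjusted p = 0.158), and *Tapbp*, at -0.50 (SE 0.25, adjusted p = 0.161), came nearest to the threshold. The edgeR, DESeq2, and limma-voom tests each called 0 of the 10, and 0 had an unadjusted p under 0.05 in edgeR, although edgeR called 31.4% of 16037 genes in this comparison, DESeq2 36.6%, and limma-voom 29.9%. The fast-growing range lay inside the spread of the controls for most genes: *H2-T23*, for example, was at 16.7, 73.0, and 65.4 CPM in DRG3, DRG4, and DRG5, around the fast-growing values given above. Without DRG3, 3 genes were called lower (*Tapbp*, *Psmb8*, and *Psmb9*), in a fit that called 31.9% of all genes. *H2-K1* had its highest level of all 14 libraries, 676 CPM, in fast-growing PN 1179, above the 633 CPM of DRG4.

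With the 11 PNs as 1 group, edgeR called 0 of the 10 genes against controls, while 26.3% of 16283 genes were called. An unadjusted p under 0.05 was reached by 3 of the 10, all lower, against 18.8% of all genes that were lower at that p. These were the proteasome subunits *Psmb8* (log2 fold change -1.30, SE 0.47, adjusted p = 0.0565) and *Psmb9* (-1.44, SE 0.56, adjusted p = 0.0713), and *Tapbp* (-0.66, SE 0.25, adjusted p = 0.0695). DESeq2 called the same 3 genes and 31.8% of all genes, and limma-voom called 0 of the 10 and 26.4% of all genes. Log2 fold changes of the other 7 ran from -1.02 (*Tap1*, SE 0.59, adjusted p = 0.222) to -0.55 (*H2-K1*, SE 0.45, adjusted p = 0.394). The control libraries are shared by these comparisons, so their values are not independent of each other. Without DRG3, edgeR called 4 (*H2-D1*, *Tapbp*, *Psmb8*, and *Psmb9*), and without fast-growing PN 1179 it called *Tapbp*, *Psmb8*, and *Psmb9*, in fits that called 25.7% and 25% of all genes.

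The 10 genes moved together from library to library. The mean of their log2(CPM + 1) was 5.09 in DRG3, 7.17 in DRG4, and 6.90 in DRG5, and it was 5.12, 5.45, 5.06, 4.33, and 5.60 in slow-growing PNs 1079, 1198A, 1202, 1203, and 1206. In fast-growing PNs this score ranged from 5.58 in 1071 to 6.85 in 1179, with 5 of the 6 above every slow-growing PN. Over the 14 libraries, the 45 pairwise Pearson correlations of log2(CPM + 1) ran from 0.777 (*H2-D1* with *Nlrc5*) to 0.972 (*Psmb8* with *Psmb9*), with a median of 0.908. The libraries share depth, tissue makeup, and group, so these are descriptions and not tests. PN 1203 held the lowest level of 9 of the 10 genes (*Tapbp* was lowest in 1079), and DRG4 held the highest of 9 of the 10 (*H2-K1* was highest in 1179).

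Of 16273 other genes that passed the filter, the 5 most like this score over the 14 libraries were *H2-M3* (Pearson r = 0.973), *Ly6e* (0.963), *Siglec1* (0.954), *Tgfb1* (0.952), and *Ifi203* (0.951). *H2-M3* encodes another nonclassical class I heavy chain, which presents formylated peptides. It was at 19.6 ± 12.9 CPM in controls (SD, n = 3), 7.12 ± 1.80 CPM (n = 5) in the slow-growing PNs, and 15.9 ± 4.90 CPM in fast-growing PNs (n = 6). These genes were chosen for their likeness to the score, so their levels are given without a test here. *H2-M3* is also counted with the class I-like list below. *Siglec1*, a macrophage surface receptor, was at 87.6 ± 75.9, 8.17 ± 8.16, and 28.9 ± 11.7 CPM in the same groups.

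Markers of leukocytes moved with the class I genes. Their 7 transcripts summed to between 116 and 1222 CPM in controls, 81.7 and 319 CPM in slow-growing PNs, and 221 and 802 CPM in fast-growing PNs, and none of the 7 was at 0 in any group. Within the 11 PNs, the class I score and the leukocyte score had a Pearson r of 0.868 and a Spearman rho of 0.845, and r was 0.659 without PNs 1203 and 1179, the farthest from the median. PN 1206 departed from this, with a leukocyte score of 3.61, below 3.96 in DRG3. Its class I score of 5.60 was the highest of the slow-growing PNs. The fibroblast list (7 of 7 detected) had r = 0.887 within the PNs, and 0.846 without PNs 1203 and 1191. It summed to 1291 to 5677 CPM in slow-growing and 5566 to 10502.5 CPM in fast-growing PNs. The macrophage list (12 of 12 detected) had r = 0.874, and 0.764 without PNs 1203 and 1079, and summed to 72.1 to 620 CPM and 362 to 1205 CPM. For the Schwann cell and glial list r was 0.00973, and it was 0.432 without PNs 1191 and 1216, so the low value rests on those libraries. The endothelial list had r = 0.324, and the sensory neuron, skeletal muscle, and fat lists had r = -0.419, -0.55, and -0.301. Controls did not follow the fibroblast list: DRG4 and DRG5 had the highest class I scores but fibroblast scores of 7.20 and 7.76, below 9.35 in PN 1179. In bulk tissue, more cells of a type and more RNA per cell cannot be told apart.

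**Figure D3:**
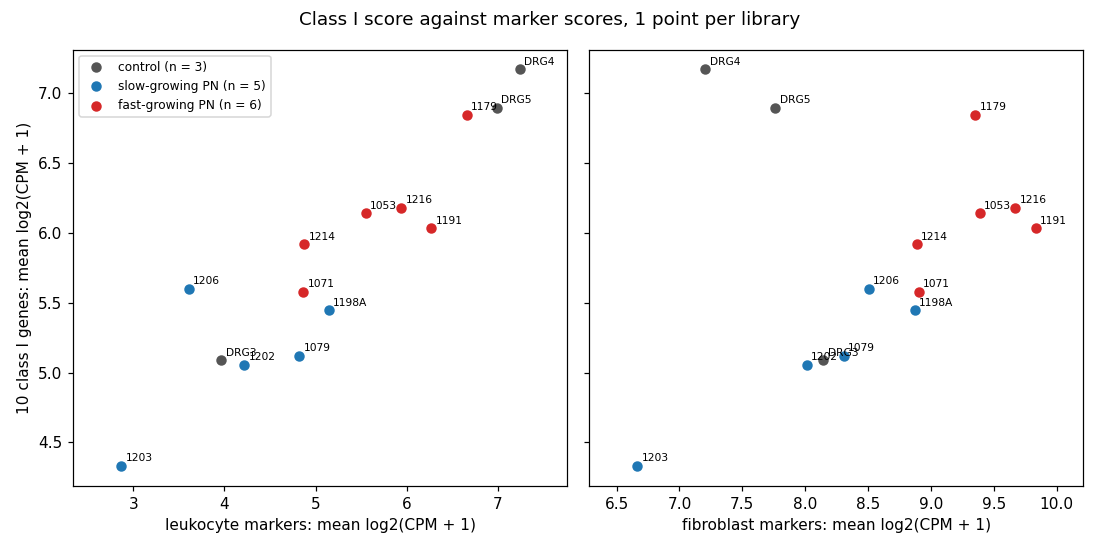
Mean log2(CPM + 1) of the 10 class I genes (vertical axis) against the same score of 7 leukocyte markers (left) or 7 fibroblast markers (right), with 1 labelled point per library. DRG4, DRG5, and PN 1179 are high and DRG3 and PN 1203 are low on the leukocyte axis. On the fibroblast axis DRG4 (7.20) and DRG5 (7.76) lie within the PN range, between PN 1203 (6.66) and PN 1202 (8.01). The class I scores of DRG4 (7.17) and DRG5 (6.90) are above that of PN 1179 (6.85), the highest of the PNs.

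When the leukocyte score was entered as a covariate, an alternative chosen after seeing the data, 0 of the 10 genes were called in any of the 4 comparisons. The median log2 fold change of the 10 genes became 0.34 in fast- versus slow-growing PNs, in place of 0.94, and -0.34 in slow-growing PNs versus controls, in place of -1.56. For *Tap1* in fast- versus slow-growing PNs it was 0.68 (SE 0.335, edgeR adjusted p = 0.509), and for *H2-K1* it was 0.05 (SE 0.41, adjusted p = 0.973). With that covariate 0 of 15465 genes were called between the growth groups. The shares of all genes called against controls with it are not given here, so 0 of the 10 was not set against a background there. How much of the class I difference the leukocyte content carries was not tested beyond these fits.

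The genes around the set were then counted by role, with lists written when earlier results of these data were known. Counts given below over all settings come from fits that called 0 to 22.5% of all genes in slow-growing PNs versus controls. The shares were 0 to 36.7% in fast-growing PNs versus controls and 0 to 10.3% between growth groups. A low end of 0 can thus come from a fit that called 0 genes in all. Among other class I and class I-like heavy chains, 15 of 27 listed genes were tested in slow-growing PNs versus controls, and 2 fell, *H2-T24* and *H2-M2*, against 7.13% of all genes called lower. *H2-T24*, a nonclassical heavy chain gene, was at 52.9 ± 10.5 CPM in controls (SD, n = 3) and fell in slow-growing PNs (23.2 ± 3.35 CPM, n = 5; adjusted p = 0.00506) and in fast-growing PNs (27.4 ± 6.19 CPM, n = 6; adjusted p = 0.00482, edgeR). In fast-growing PNs versus controls 5 of 14 tested fell and 1 rose, against 16.7% and 14.8% of all genes. The gene that rose was *H2-T10*, outside the naming rule and given to complete the count, at 10.3 ± 4.52 CPM against 3.08 ± 2.07 CPM in controls (edgeR adjusted p = 0.047), and 42.9% of its 50-base words occur in other genes. *H2-Q10*, a secreted class I chain, fell in fast-growing PNs to 1.70 ± 1.13 CPM from 41.2 ± 4.61 CPM (edgeR adjusted p = 0.000172). *Cd1d1*, which presents lipids, fell in fast-growing PNs to 1.71 ± 0.61 CPM from 15.6 ± 3.07 CPM (edgeR adjusted p = 0.000122). Between growth groups 1 of 12 tested rose and 0 fell, against 0.802% and 0.466% of all genes. That gene was *H2-M3* (log2 fold change 1.15, SE 0.24, edgeR adjusted p = 0.0484), without overlap of the groups. *H2-Q10* and *Cd1d1* did not pass between growth groups (edgeR adjusted p = 0.0516 and 0.0625), nor did they in slow-growing PNs versus controls (0.55 and 0.26). Over all settings 0 to 2 of the list rose and 0 to 2 fell between growth groups. Against controls 0 to 3 fell in slow-growing and 0 to 6 in fast-growing PNs, and 0 to 2 and 0 to 4 rose. *H2-Q10* was split among the slow-growing PNs, at 6.45, 40.8, 18.7, 1.10, and 54.3 CPM in 1079, 1198A, 1202, 1203, and 1206. Fat markers were split alongside, summing to 63.6 to 3749 CPM in slow-growing PNs, 60.6 to 427 CPM in fast-growing PNs, and 4628 to 6929 CPM in controls. *H2-Q6*, *H2-Q7*, *H2-Q9*, and *H2-T9* were at 0 counts in every library, in a mapping to the C57BL/6 reference. *H2-Q1* was at 76.8 CPM in PN 1079 and did not exceed 5.51 CPM elsewhere, and *H2-M2* was at 62.7 CPM in DRG4 and 23.6 CPM in DRG5 and did not exceed 2.998 CPM elsewhere. *H2-Q1* and *H2-M2* were singled out after their values had been seen.

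Among proteasome genes, *Psmb10*, the remaining catalytic immunoproteasome subunit, was at 35.4 ± 13.7 CPM in controls (SD, n = 3) and fell in slow-growing PNs to 14.5 ± 2.82 CPM (n = 5; adjusted p = 0.0222) and in fast-growing PNs to 20.0 ± 5.55 CPM (n = 6; adjusted p = 0.0471, edgeR). *Psme2*, which encodes a subunit of the PA28 activator, fell from 62.0 ± 23.4 CPM to 26.9 ± 6.56 CPM and 30.3 ± 4.37 CPM (edgeR adjusted p = 0.0292 and 0.00541). These 2 of 7 listed partners were the only ones called against controls in these fits, where 7.13% (slow-growing) and 16.7% (fast-growing) of all genes were called lower. Over all settings 0 to 4 partners fell in slow-growing PNs and 0 to 3 in fast-growing PNs. Of the 14 genes of the constitutive core, 3 fell in slow-growing PNs and 13 fell in fast-growing PNs, with median log2 fold changes of -0.49 and -0.80, against the same shares of all genes. Over all settings the counts ran from 0 to 7 and from 0 to 13. Examples are *Psmb3* (68.4 ± 2.98 CPM in controls; 29.96 ± 8.46 and 31.6 ± 6.88 CPM in slow- and fast-growing PNs; edgeR adjusted p = 0.00767 and 0.00135), *Psma1* (adjusted p = 0.0488 and 0.00167), and *Psma2* (adjusted p = 0.143 and 0.00182). Between growth groups edgeR, DESeq2, and limma-voom each called 0 of the 14 core genes, and 0 had an unadjusted p under 0.05. With the skeletal muscle and fat scores as covariates, 0 of the 14 were called against controls in either growth group, in fits that called 0 genes in all, and the median log2 fold changes were -0.61 and -0.90.

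Within a library, the immune subunit can be set against the constitutive one that it replaces, per kb of transcript. The ratio of *Psmb8* to *Psmb5* was 0.353 ± 0.266 in controls (SD, n = 3), 0.134 ± 0.0756 in slow-growing PNs (n = 5), and 0.317 ± 0.151 in fast-growing PNs (n = 6). *Psmb9* to *Psmb6* was 0.273 ± 0.207, 0.0960 ± 0.0482, and 0.290 ± 0.178, and *Psmb10* to *Psmb7* was 0.298 ± 0.133, 0.148 ± 0.0595, and 0.278 ± 0.0907. In each pair the growth groups overlapped, and DRG3 was the lowest control. These ratios are descriptions, and their differences were not tested.

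**Figure D4:**
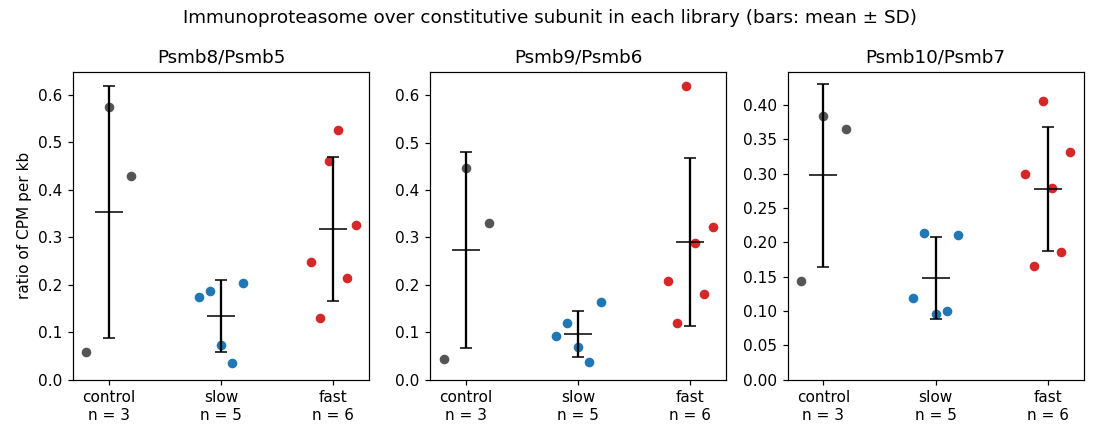
Ratio of each immunoproteasome subunit to the constitutive subunit it replaces, in CPM per kb, for each library (points) with the group mean ± SD (bars), in controls (n = 3), slow-growing PNs (n = 5), and fast-growing PNs (n = 6). Slow-growing PNs sit lowest on average in the 3 pairs, and the controls span from 0.057 to 0.574 for *Psmb8* over *Psmb5*.

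Of 18 peptide loading and trimming genes tested, 5 fell and 0 rose in slow-growing PNs versus controls, where 7.13% of all genes were called lower and 4.12% higher. In fast-growing PNs versus controls 5 fell and 3 rose, and 16.7% of all genes were called lower and 14.8% higher, so the rising share was about the background. Over all settings 0 to 5 fell in each comparison, and 0 to 2 rose in slow-growing and 0 to 3 in fast-growing PNs. *Tapbpl*, a relative of tapasin that edits peptides, was at 20.8 ± 7.03 CPM in controls, 10.4 ± 1.15 CPM in slow-growing PNs, and 10.2 ± 1.97 CPM in fast-growing PNs (edgeR adjusted p = 0.0315 and 0.00801). *Sec61g*, a subunit of the translocon through which chains enter the endoplasmic reticulum, was at 45.5 ± 3.13, 23.5 ± 6.30, and 24.4 ± 4.20 CPM (edgeR adjusted p = 0.023 and 0.00185), and *Derl1*, of the degradation machinery there, was at 98.0 ± 5.60, 63.1 ± 12.4, and 55.6 ± 1.90 CPM (edgeR adjusted p = 0.0484 and 0.000167). Between growth groups the log2 fold change of *Tapbpl* was -0.02 (SE 0.16, edgeR adjusted p = 0.937), against 0.52 for *Tapbp*. Between growth groups edgeR and limma-voom called 0 of the 18, DESeq2 called 1 (and 10.3% of all genes), and 5 had an unadjusted p under 0.05, against 20.4% of all genes in either direction.

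Interferon-stimulated genes outside the class I pathway were followed as the response that usually accompanies it. Of 32 tested, 8 rose and 0 fell in fast- versus slow-growing PNs (*Mx1*, *Ifit1*, *Ifih1*, *Ddx58*, *Isg15*, *Oasl2*, *Oas1a*, and *Usp18*), with a median log2 fold change of 1.31, against 0.802% of all genes called higher. An unadjusted p under 0.05 was reached by 27, against 11.9% of all genes that were higher at that p. *Oasl2*, an antiviral gene, was at 24.7, 27.5, and 23.1 CPM in DRG3, DRG4, and DRG5, at 43.4, 40.5, 41.6, 36.4, and 37.7 CPM in slow-growing PNs 1079, 1198A, 1202, 1203, and 1206, and at 98.1 to 145 CPM in fast-growing PNs. The 3 groups did not overlap, and *Oasl2* rose in slow-growing PNs versus controls (log2 fold change 0.61, SE 0.15, adjusted p = 0.0332), in fast-growing PNs versus controls (2.24, SE 0.18, adjusted p = 4.17e-05), and between growth groups (1.64, SE 0.13, adjusted p = 0.00104, edgeR). *Ifit1*, which binds viral RNA, had the same order, at 8.57 ± 0.70 CPM in controls (SD, n = 3), 24.2 ± 4.44 CPM (n = 5) in the slow-growing PNs, and 67.6 ± 16.1 CPM in fast-growing PNs (n = 6). *Ifit2* was at 22.02 ± 4.76, 50.1 ± 9.76, and 70.6 ± 10.8 CPM. Against controls, 3 of 32 rose in slow-growing PNs (*Ifit1*, *Ifit2*, and *Oasl2*) and 10 of 32 rose in fast-growing PNs, against 4.12% and 14.8% of all genes. Of the 32, 26 had a log2 fold change below 0 in slow-growing PNs (median -0.38). Over all settings, 0 to 3 rose and 0 to 6 fell in slow-growing PNs, and 0 to 22 rose in fast-growing PNs. The 3 controls lay close together for *Oasl2* and *Ifit1* but were scattered for other genes of the list, such as *Ifi47* (33.5 ± 26.9 CPM) and *Gbp4* (29.3 ± 23.4 CPM), named after their values had been seen. Between growth groups, called genes of the list numbered 25 with DESeq2 and 3 with limma-voom, which called 10.3% and 0.22% of all genes, and 0 with the leukocyte score or the skeletal muscle and fat scores as covariates, in fits that called 0 genes in all. The median log2 fold change of the list between growth groups ran from 0.768 to 1.44 over all settings. Without both PN 1079 and PN 1191, only *Oasl2* of the 32 was called between growth groups, in a fit that called 2 genes in all.

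**Figure D5:**
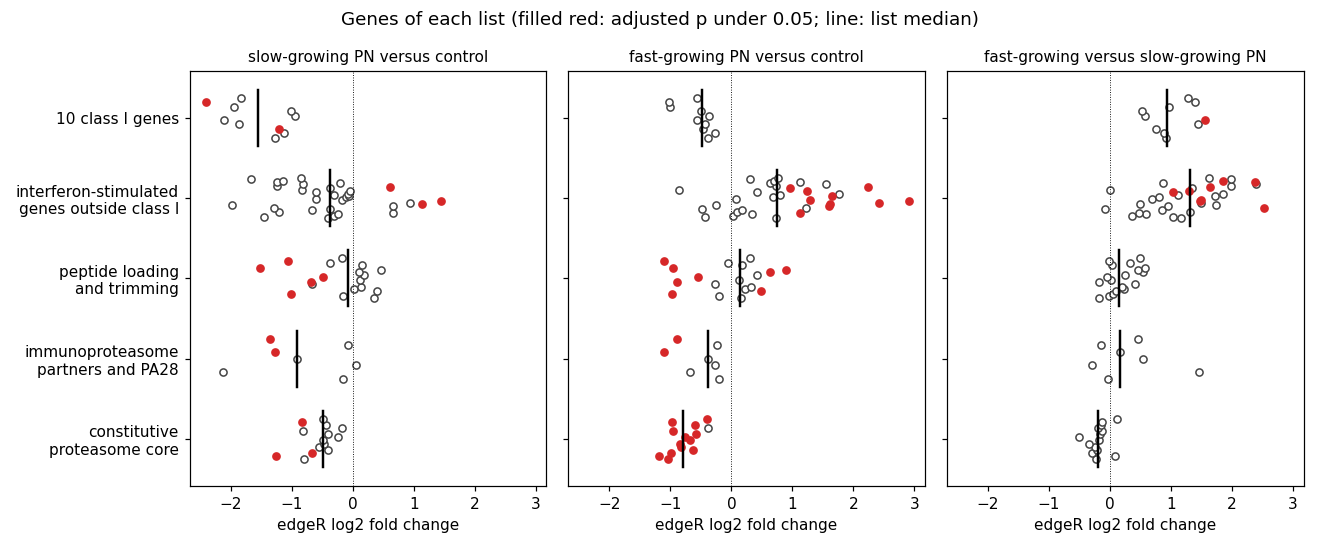
edgeR log2 fold changes of each tested gene (points) in the 10 class I genes and 4 lists, for 3 comparisons; filled red points passed an adjusted p of 0.05 and lines mark the list medians. In slow-growing PNs versus controls the class I genes lie below 0 with a median of -1.56, while between growth groups they lie above 0 with a median of 0.94, as do 30 of the 32 interferon-stimulated genes, with a median of 1.31.

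Among genes of the interferon response pathway, *Irf9*, which encodes an interferon regulatory factor, rose between growth groups. It was at 40.8 ± 9.34 CPM in fast-growing (SD, n = 6) and 20.6 ± 4.35 CPM in slow-growing PNs (n = 5), a log2 fold change of 0.99 (SE 0.21, edgeR adjusted p = 0.0484). *Stat2* was at 75.5 ± 12.0 CPM and 53.4 ± 15.5 CPM and rose in fast-growing PNs versus controls (41.8 ± 6.40 CPM, n = 3; edgeR adjusted p = 0.00655). *Ifnar1*, a chain of the type I interferon receptor, was at 90.4 ± 10.6 CPM in controls, 224 ± 15.7 CPM in slow-growing PNs, and 233 ± 18.6 CPM in fast-growing PNs, and it rose in both (edgeR adjusted p = 0.00293 and 0.000139). *Ifng*, singled out after its values had been seen, was at 0.733 CPM in DRG4 and did not exceed 0.204 CPM in any other library.

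Of 16 factors that bind or silence these promoters, 0 rose and 2 fell in slow-growing PNs versus controls, and 0 rose and 4 fell in fast-growing PNs versus controls, against 7.13% and 16.7% of all genes called lower. Over all settings 0 to 5 fell in slow-growing PNs, and 0 to 4 fell and 0 to 2 rose in fast-growing PNs. *Atf1*, a factor of the cAMP response element, was at 89.2 ± 18.2, 36.3 ± 9.91, and 41.1 ± 8.64 CPM in controls, slow-growing, and fast-growing PNs (edgeR adjusted p = 0.0155 and 0.00256). *Relb*, an NF-kB subunit, was at 12.4 ± 5.80, 3.38 ± 1.31, and 6.38 ± 1.15 CPM (edgeR adjusted p = 0.0217 and 0.0253), and *Nfyc*, of the factor that binds the Y box, was at 28.5 ± 6.03, 18.3 ± 4.36, and 18.7 ± 1.41 CPM (edgeR adjusted p = 0.114 and 0.0115). *Nlrc5*, whose product works with these factors, did not pass in either comparison.

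Among genes of the T and NK cells that read class I, 2 of 14 tested fell in slow-growing PNs and 2 of 15 fell in fast-growing PNs versus controls, and none rose. The shares of all genes called lower were 7.13% and 16.7%, and over all settings 0 to 6 and 0 to 9 of the list fell. *Prf1*, which encodes perforin, was at 3.15 ± 2.10 CPM in controls (SD, n = 3), 0.358 ± 0.237 CPM (n = 5) in the slow-growing PNs, and 0.466 ± 0.443 CPM in fast-growing PNs (n = 6; edgeR adjusted p = 0.0129 and 0.0268). *Nkg7*, of cytotoxic granules, was at 16.5 ± 15.2, 0.649 ± 0.491, and 1.52 ± 1.61 CPM (edgeR adjusted p = 0.0297 and 0.0333). *Ncr1*, an NK cell receptor, was called with the PNs as 1 group and not in fast-growing PNs versus controls (0.487 ± 0.400 CPM against 3.01 ± 2.99 CPM for the PNs as 1 group; edgeR adjusted p = 0.0117 and 0.0707). The PN values of *Prf1* and *Ncr1* lay near the floor of 3 counts. *Cd8a*, also singled out after its values had been seen, was at 98.3 CPM in PN 1079, 50.6 CPM in PN 1191, and 1.62 to 11.2 CPM in the other 9 PNs, and at 1.71 CPM in DRG3, 47.3 CPM in DRG4, and 20.4 CPM in DRG5.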

How the data were processed

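Total RNA from DRGs and PNs was amplified and sequenced by the authors, whose processing notes name TopHat2 2.0.9, featureCounts 1.5.2, edgeR 3.16.5, and the mm10 build. The deposited values used here are raw counts per gene as the authors made them, for 24062 genes in 14 libraries with totals of 9596773 to 17594164. Intervals and floors (3 counts) cover counting error only. A deposited log2 table of 16382 genes was not used. The ribosomal row Rn45s held 3.48 to 18.1% of counts.

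Groups came from the labels. Each of 4 comparisons was fitted on its own libraries with the edgeR 4.0.16 quasi-likelihood test in R 4.3.3 (filterByExpr, TMM, Benjamini-Hochberg over all genes, threshold 0.05) and tested on simulated data. CPM used TMM factors, and scores used log2(CPM + 1). Alternatives were DESeq2 1.42.0, limma-voom (limma 3.58.1), other scalings, no filter, a joint fit, covariates, a length and GC correction, and leaving out each library. All members were named, with up to 3 genes per list, called in at least 1 comparison and taken by lowest p in any comparison, and the 5 genes most correlated with the member score. Genes outside this rule were added after their values had been seen. Members and lists were chosen with earlier results of these data known. Counts of 1 list and matches of 1 motif are not reported here.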

Additional observations from a re-analysis of the deposited data

Results flagged for a closer look

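*Tap1* was singled out because the effects of slow and fast growth against the same controls differed by a direct test. Its log2 fold change between fast- and slow-growing PNs was 1.56 (SE 0.33, edgeR adjusted p = 0.0484), with all 6 fast-growing PNs above all 5 slow-growing PNs. None of 20 checks for a library far from the rest of its group, over the 10 genes in both growth groups, passed Dixon's critical value.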

How the results depend on the processing

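In fast- versus slow-growing PNs all 10 genes kept a log2 fold change above 0 in all 21 settings, but the single call did not hold. The number of the 10 called was 1 with the length and GC trend removed (1.37% of all genes) and 6 with DESeq2 (10.3%). It was 0 with DESeq2 size factors, total counts, no filter, limma-voom, or the fit over all groups (0.22% to 2.6%). It was also 0 with either set of covariates, where 0 genes were called in all, and with PNs 1079 and 1191 left out (0.0129%). With 1 library left out it was 0 to 3 (0.0128% to 7.65%). Over all settings the adjusted p of *Tap1* ran from 0.000686 to 0.509. In slow-growing PNs versus controls the number was 1 with DESeq2 size factors (11% of all genes), total counts (10.9%), or no filter (7.34%). It was 7 with DESeq2 (22.5%) or the fit over all groups (20.1%). It was 0 with limma-voom (11.7%), the length and GC trend removed (7.97%), PNs 1079 and 1191 left out (6.19%), or the leukocyte covariate (3.31%). With muscle and fat covariates it was also 0, in a fit that called 0 genes in all. With 1 library left out it was 0 to 9 (3.74% to 15.3%). In fast-growing PNs versus controls it was 0 except with 1 library left out (0 to 3, with 20.4% to 32.1% of all genes called). With muscle and fat covariates that comparison called 0 genes in all, and the remaining settings called 23% to 36.7%. With the PNs as 1 group the number of the 10 called was 1 with DESeq2 size factors (25.8% of all genes). It was 3 with DESeq2 (31.8%) or the fit over all groups (29.9%), and 0 to 4 with 1 library left out (12.5% to 29.4%). In the remaining settings it was 0, and the share ran from 3.63% (muscle and fat covariates) to 30.8% (leukocyte covariate). Signs turned in these cases. In slow-growing PNs versus controls *H2-K1* became 0.0209 with muscle and fat covariates, and *H2-K1* became 0.0649 and *Nlrc5* 0.455 with the leukocyte covariate. In fast-growing PNs versus controls *B2m* became 0.1 and *H2-K1* 0.0982 with the length and GC trend removed, *H2-K1* became 0.0978, *H2-T23* 0.0192, *Tap1* 0.162, and *Nlrc5* 0.295 with the leukocyte covariate, and with 1 library left out *Nlrc5* ran from -1.07 without DRG3 to 0.194 without DRG4. With the PNs as 1 group and the leukocyte covariate, *H2-K1* became 0.129, *Tap1* 0.0944, and *Nlrc5* 0.313. With muscle and fat covariates the values against controls moved further below 0 in fast-growing PNs (*H2-K1* -1.67, *H2-D1* -2.29, *Psmb9* -3.58; median over the 10 genes -1.71, against -0.49) and with the PNs as 1 group (median -2.21, against -0.79). The leukocyte covariate and the exclusion of PNs 1079 and 1191 were chosen after seeing the data, and the cause of these changes was not tested. No paired analysis was possible because the groups share no replicate numbers. Depth did not limit the 10 genes, whose lowest count was 36.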

Other observations

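*H2-Q4*, a heavy chain gene outside the set singled out after its values had been seen, was at 14.7 ± 9.02 CPM (SD, n = 5) in the slow-growing group and 47.0 ± 18.3 CPM (n = 6) in the fast-growing group, a log2 fold change of 1.67 (SE 0.43, edgeR adjusted p = 0.0639) that did not pass. *Cd3e*, a T cell receptor complex gene singled out after its values had been seen, was at 47.5 CPM in PN 1079 and 22.7 CPM in PN 1191, at 66.5 CPM in DRG4 and 45.3 CPM in DRG5, and did not exceed 6.87 CPM in the other 10 libraries. Subtracting the leukocyte score from the class I score gave 1.99 in PN 1206 and 1.47 in PN 1203, and -0.231 in PN 1191, the extremes over the 14 libraries being 1206 and 1191.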
